A study of Saccharomyces cerevisiae with 71 samples.

Results

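The tRNAs that carry arginine were measured by 4 of the 41 probes of a tRNA microarray, which the files call Arg-9 and Arg-10, Arg-11 and Arg-12, and were chosen by that name alone. Arginyl-tRNA synthetase attaches Arg to each of these isoacceptors, which are tRNAs for the same amino acid that differ in anticodon and so read different Arg codons. Charging of an isoacceptor depends on the supply of free Arg, on its use by the ribosome and on the competition of the isoacceptors for that supply. In budding yeast uncharged tRNA binds the eIF2 kinase Gcn2p, which raises translation of the activator Gcn4p and, through it, transcription of amino acid biosynthetic genes, among them genes of the Arg pathway. That pathway runs from Glu through ornithine and citrulline to Arg, with Asp entering at the last steps, so that ornithine is an Arg precursor. The files do not pair the probe names with anticodons or sequences, and the probes are given by number throughout.

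The series compared a prototrophic wild-type *Saccharomyces cerevisiae* strain (MATα, with URA3, LEU2 and TRP1 restored) with an isogenic gcn2Δ strain, in which URA3 replaces GCN2. Cultures of both strains were moved from complete synthetic medium to the same medium without His, Trp, Arg, Leu, or Trp, Phe and Tyr together, or to medium without Arg to which 2 mg/ml ornithine had been added. Each strain, medium and time gave 1 sample, called a culture here, so that no condition had a replicate culture. Whether the time points of a strain and medium were drawn from the same flask is not stated in the sources used here. Arg was absent from 8 of the 26 depleted cultures, those without Arg and those without Arg but with ornithine, of each strain, at 15 and 60 min.

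Each charging array carried periodate-treated (charged) and untreated (total) tRNA of 1 culture in opposite dyes. The authors deposited ratio values, in which charged over total tRNA is divided by the same quantity in the reference culture and the median over probes is close to 1 (0.995 to 1.01). A ratio below 1 thus means that charging, relative to the median tRNA of the array, was below that of the reference culture, and it does not give the share of a tRNA that is charged. All 22 reference arrays hold 1 for every probe, and the strains were therefore not compared in complete medium. Of the 20 dye-swapped pairs of depleted cultures, the SD over probes of the log2 difference between arrays had a median of 0.32. The remaining 6 cultures had 1 array, with total tRNA in Cy3, including the gcn2Δ culture at 15 min with ornithine and both wild-type cultures with ornithine. The number of arrays limits the precision of each value.

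A pair of limits touches the results below. The Cy5 arrays of the Trp experiment ran opposite to their partners and were turned, so that the 4 values of Trp cultures used for comparison rest on that choice. The gcn2Δ culture without Arg at 60 min with ornithine had 2 arrays that did not agree. Over its 37 probes other than Arg the arrays correlated at -0.48, and the SD of these probes was 0.125 when total tRNA carried Cy3 and 0.703 when it carried Cy5, where Met-6 stood at a ratio of 0.297 and 7 other probes lay below the highest Arg probe. On the 45 other arrays of depleted cultures this SD ranged from 0.0721 to 0.803. Results of that culture are given with and without its Cy5 array, and the part that array plays was not tested further.

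In the gcn2Δ strain all 4 isoacceptors lost charging within 60 min without Arg. The ratio of Arg-9 was 0.127 when total tRNA carried Cy3 and 0.0913 when it carried Cy5. For Arg-10 the ratios were 0.101 and 0.0999, and for Arg-11 they were 0.118 and 0.111. Arg-12 kept the most charging on both arrays, with ratios of 0.202 and 0.179. Each of these 8 values lay below every other probe of its array, the lowest of which was Glu-3 at 0.336 in Cy3 and 0.560 in Cy5. The averages correspond to charging lower by 9.28-fold for Arg-9, 9.94-fold for Arg-10, 8.74-fold for Arg-11 and 5.26-fold for Arg-12.

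**Figure D1:**
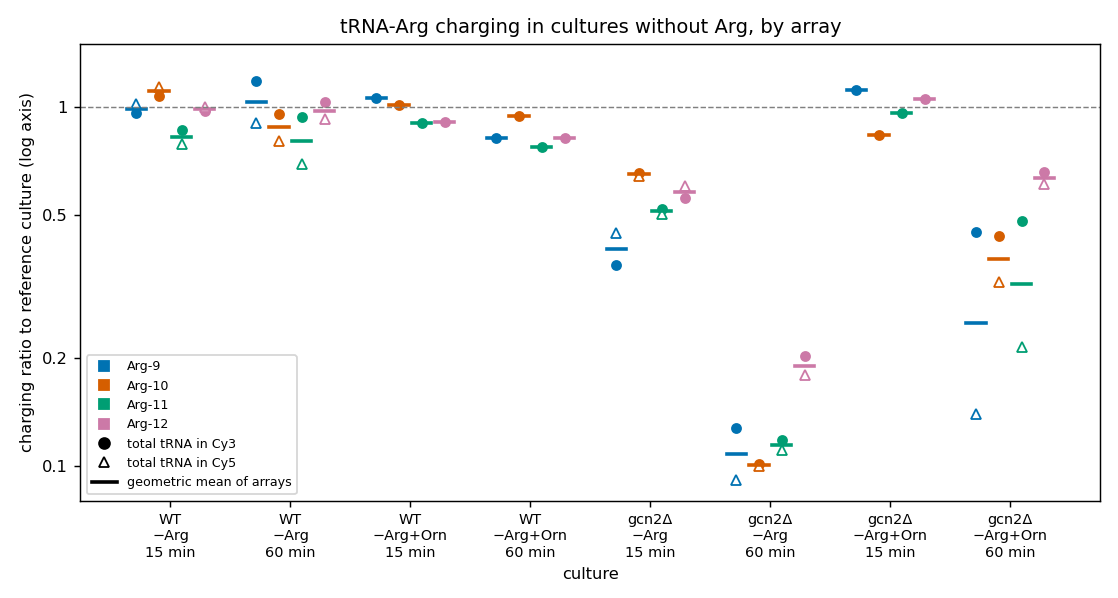
Charging ratio to the reference culture (log axis) of the 4 Arg probes in each culture without Arg, by strain, medium and time. Filled circles are arrays with total tRNA in Cy3, open triangles arrays with it in Cy5, and bars the geometric mean; the 8 values of the gcn2Δ culture at 60 min without ornithine lie between 0.0913 and 0.202.

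To ask whether these changes exceeded the spread between cultures, each culture without Arg was set against the 6 cultures of the same time point whose media lacked His, Trp, or Trp, Phe and Tyr and kept Arg. The test was limma with p-values adjusted by Benjamini-Hochberg over all 41 probes, and a probe with an adjusted p below 0.05 was called. It takes its spread from the 6 comparison cultures and assumes that the lone culture varies like them; an exact permutation test of 1 culture against 6 could not fall below 0.143. At 60 min without Arg the gcn2Δ culture differed from the comparison cultures by -3.08 for Arg-9 (95% confidence interval -3.60 to -2.56) and -3.34 for Arg-10 (-3.85 to -2.84), with -3.09 for Arg-11 (-3.56 to -2.61) and -2.34 for Arg-12 (-2.89 to -1.79) on the log2 scale. Each of the 4 was called (adjusted p from limma between 1.0e-05 and 0.00012), and they were all that was called, 9.76% of the 41 probes. Each of the 4 stayed called under all 17 alternatives tried, although 1 of these, leaving out the ornithine Cy5 array, cannot alter this comparison.

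At 15 min the order of the isoacceptors was different. Arg-9 was the lowest of the 4 on both arrays, with ratios of 0.362 and 0.447, and Arg-10 was the highest on both, with 0.657 and 0.644. Arg-11 stood at 0.520 and 0.504, and Arg-12 at 0.557 and 0.604. Other tRNAs lay among them in this culture: counted from the lowest average of the 41 probes, Arg-9 was at place 1, Arg-11 at 4, Arg-12 at 7 and Arg-10 at 8, with Glu-3, Asp-3, Lys-4 and Tyr-3 in between. Against the comparison cultures the difference was -1.31 for Arg-9 (95% confidence interval -1.92 to -0.71) and -0.76 for Arg-10 (-1.10 to -0.41), and these 2 were called (both adjusted p = 0.0224 from limma), as were 4.88% of all probes. Arg-11, at -0.79, and Arg-12, at -0.65, were not past the threshold (adjusted p = 0.0959 and 0.157 from limma). Arg-10 was called at a slightly smaller change than Arg-11, and its SD over the 6 comparison cultures was 0.110 against 0.221 for Arg-11. The calls at 15 min lay near the threshold. Without the wild-type Trp/Phe/Tyr culture in the comparison the adjusted p from limma of both was 0.0587, without the gcn2Δ one it was 0.0504, and with the Cy3 orientation alone it was 0.201, whereas the Cy5 orientation alone called all 4. For this and the other alternatives below, the share of all probes called was not counted, so calls among the Arg probes have no background there.

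In the wild-type strain no isoacceptor was called in any of the 4 cultures without Arg (0% of all probes), and none had an unadjusted p from limma below 0.05. At 15 min without Arg the ratios in Cy3 and Cy5 were 0.963 and 1.02 for Arg-9, 1.08 and 1.14 for Arg-10, 0.863 and 0.789 for Arg-11, and 0.977 and 0.998 for Arg-12. At 60 min they were 1.18 and 0.904 for Arg-9, 0.958 and 0.804 for Arg-10, 0.938 and 0.693 for Arg-11, and 1.03 and 0.925 for Arg-12. The Cy5 array at 60 min was lower than its partner for each of the 4. Arg-11 was the lowest of the 4 on all 6 wild-type arrays without Arg, with or without ornithine, at ratios from 0.693 to 0.938. This order was not a called difference: Arg-11 was also lowest on 7 of the 21 arrays from media that keep Arg, and its difference from the comparison cultures was -0.27 at 60 min (95% confidence interval -0.74 to 0.21, adjusted p = 0.978 from limma). At 60 min without Arg the intervals in the wild type reached down to -0.74 for Arg-11 and -0.72 for Arg-10, and to -0.53 for Arg-12 and -0.34 for Arg-9, and losses smaller than these could not be told from no change. With ornithine they reached at most to -0.80, for Arg-11.

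**Figure D2:**
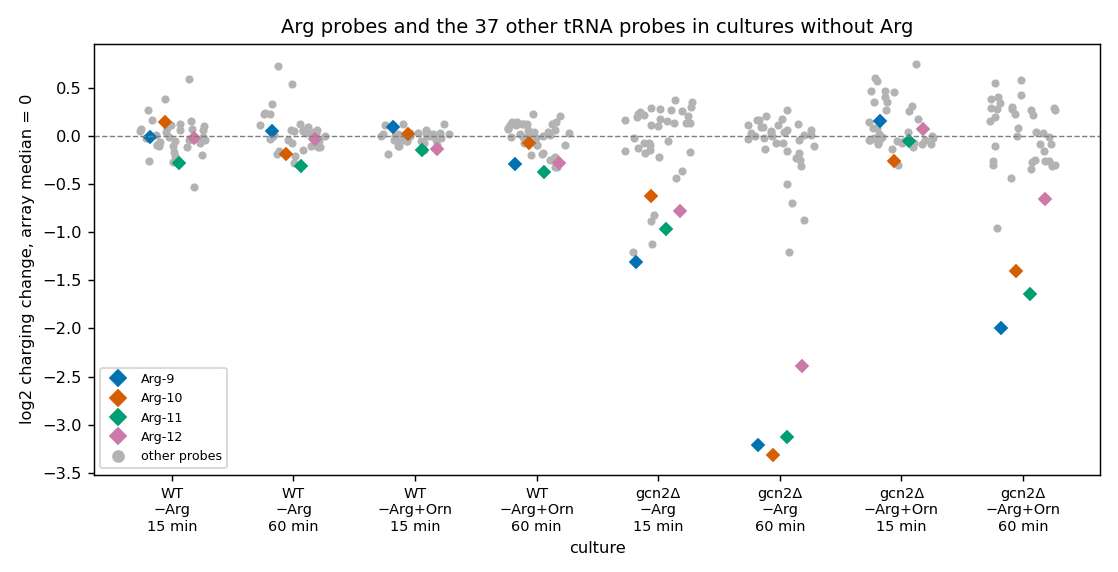
Log2 charging change (array median at 0) of the 4 Arg probes, as coloured diamonds, and of the 37 other probes, as grey points, in each culture without Arg; horizontal shifts only separate points. In the gcn2Δ strain the Arg probes lie from -3.31 to -2.39 at 60 min without ornithine, below all other probes, and at 15 min Arg-9 lies below and the other 3 among them.

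The difference between strains was tested itself, as the gcn2Δ culture minus the wild-type culture of the same medium and time. At 60 min without Arg it was -3.26 for Arg-9 and -3.13 for Arg-10, with -2.82 for Arg-11 and -2.36 for Arg-12. Each of the 4 was called (adjusted p from limma between 9.9e-05 and 0.00077), with 9.76% of all probes called, and stayed so under the 17 alternatives. Leaving out comparison cultures cannot change the size of this difference, only its p-value, and leaving out the ornithine Cy5 array changes neither. At 15 min the differences were -1.30 for Arg-9 and -0.77 for Arg-10, with -0.69 for Arg-11 and -0.77 for Arg-12. None was called (0% of all probes), although each had an unadjusted p from limma below 0.05, and the smallest adjusted p from limma among them was 0.111. With the Cy5 orientation alone all 4 were called at 15 min, where the share of all probes called was not counted. Each of these contrasts compares 1 culture with 1 culture.

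Between 15 and 60 min without Arg the gcn2Δ culture lost charging of each isoacceptor. The change over this time, compared with the same change in the 6 comparison experiments, was -2.59 for Arg-10 (95% confidence interval -3.08 to -2.10), -2.30 for Arg-11 (-3.02 to -1.58), -1.77 for Arg-9 (-2.46 to -1.08) and -1.69 for Arg-12 (-2.28 to -1.09). Each of the 4 was called (adjusted p from limma between 0.00011 and 0.0043), again 9.76% of the probes. Arg-9, which was the lowest at 15 min, and Arg-12 thus had the smaller later losses, although no difference between isoacceptors in this change was called (0% of 32 pairs, 3 Arg pairs with an unadjusted p from limma below 0.05, smallest adjusted p = 0.294, for Arg-9 against Arg-10 and Arg-10 against Arg-12). This test of pairs was added after the data were seen. In the wild type without Arg the change from 15 to 60 min was between -0.23 and 0.19, and none was called (0% of the probes) or had an unadjusted p from limma below 0.05. Arg-9 lost its call with the Cy3 orientation alone (adjusted p = 0.0611 from limma), and Arg-12 when only gcn2Δ cultures served as comparison (0.0919).

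With ornithine the picture at 15 min was different. On the single array of that gcn2Δ culture the ratio was 1.12 for Arg-9, 1.05 for Arg-12, 0.961 for Arg-11 and 0.837 for Arg-10. None was called against the comparison cultures (0% of all probes), and 1, Arg-10 at -0.39, had an unadjusted p from limma below 0.05 (adjusted p = 0.437). Arg-9, whose ratio was the lowest of the 4 at 15 min without ornithine, was the highest on this array. Arg-10, whose ratio was the highest there, was the lowest. Against the comparison cultures the order was not the same. Arg-12 changed least without ornithine, at -0.65 beside -0.76 for Arg-10, and stood highest with it, at 0.21 beside 0.16 for Arg-9. With ornithine the pair difference Arg-9 minus Arg-10 was 0.55 relative to the comparison cultures. Arg-10 minus Arg-11 was -0.51 and Arg-10 minus Arg-12 was -0.60. Each of these 3 pairs had an unadjusted p from limma below 0.05. None was called (adjusted p = 0.381 from limma, 0% of the pairs), and all rest on 1 array. At 60 min the ratios with total tRNA in Cy3 were 0.449 for Arg-9 and 0.438 for Arg-10, with 0.480 for Arg-11 and 0.660 for Arg-12. On the Cy5 array that stood apart they were 0.139, 0.326, 0.215 and 0.612. The arrays differed by 1.69 on the log2 scale for Arg-9, and Arg-12 was again the highest of the 4 on both.

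Against the comparison cultures, the gcn2Δ culture at 60 min with ornithine stood at -1.87 for Arg-9, -1.60 for Arg-11 and -1.43 for Arg-10 on the log2 scale, and these 3 were called (adjusted p from limma between 0.0013 and 0.0027), as were 7.32% of all probes. Arg-12, at -0.60 (95% confidence interval -1.15 to -0.05), was not past the threshold (adjusted p = 0.316 from limma). Without the Cy5 array the same 3 stayed called, at -1.02 for Arg-9, -1.22 for Arg-10 and -1.02 for Arg-11 (adjusted p from limma between 0.0234 and 0.0268), while Arg-12 was at -0.55 (adjusted p = 0.527). Taking the Cy3 orientation alone in all cultures left 1 call, Arg-10. The change from 15 to 60 min was -2.03 for Arg-9, -1.72 for Arg-11 and -1.04 for Arg-10, which were called (adjusted p from limma between 0.0072 and 0.0129; 9.76% of all probes, the other being Asn-3 at -0.90). Arg-12, at -0.81, was not (adjusted p = 0.117 from limma). Without the Cy5 array none of these was called (smallest adjusted p = 0.0945 from limma), with values from -1.18 to -0.75.

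The calls of the strain difference at 60 min with ornithine did not hold without the same array. It was -1.71 for Arg-9, -1.32 for Arg-10 and -1.27 for Arg-11, which were called (adjusted p from limma between 0.0177 and 0.0248; 7.32% of all probes), and -0.37 for Arg-12 (adjusted p = 0.931). Without the Cy5 array it was -0.87 for Arg-9, -1.11 for Arg-10 and -0.69 for Arg-11, beside -0.32 for Arg-12, and none was called (smallest adjusted p = 0.2005 from limma). With a term for strain in the comparison cultures it was -1.81 for Arg-9, -1.50 for Arg-10 and -1.17 for Arg-11, and none was called (adjusted p from limma between 0.0654 and 0.141). Without the wild-type His, wild-type Trp or gcn2Δ His culture in the comparison, 1 of the 4 was called, and without the gcn2Δ Trp/Phe/Tyr culture the adjusted p from limma of Arg-10 was 0.0523, as it was 0.0593 with arrays centred on the mean of the other 37 probes. In the wild type with ornithine the ratios at 15 min were 1.06 for Arg-9 and 1.01 for Arg-10, with 0.902 for Arg-11 and 0.910 for Arg-12, and at 60 min they were 0.819, 0.946, 0.773 and 0.822 in that order. No isoacceptor was called in either of these cultures (0% of all probes), or in the difference between strains at 15 min (0% of all probes; no Arg probe had an unadjusted p from limma below 0.05).

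Ornithine itself was tested as the difference between the culture with it and the culture without it, of the same strain and time. In the gcn2Δ strain at 60 min each of the 4 isoacceptors was more charged with ornithine: by 1.21 on the log2 scale for Arg-9 (95% confidence interval 0.54 to 1.89), 1.91 for Arg-10 (1.25 to 2.57), 1.49 for Arg-11 (0.87 to 2.11) and 1.74 for Arg-12 (1.02 to 2.46). These are ratios of 2.32, 3.75, 2.81 and 3.34. Each of the 4 was called (adjusted p from limma between 0.0073 and 0.0351), and no other probe was (9.76% of all probes). The spread between the dyes was wide for some: with total tRNA in Cy3 the ratio of the cultures was 3.53 for Arg-9 and 4.32 for Arg-10, with 4.06 for Arg-11 and 3.26 for Arg-12, and with it in Cy5 it was 1.53, 3.26, 1.94 and 3.43. Without the Cy5 array that stood apart the differences were 2.06, 2.12, 2.07 and 1.79, all called (adjusted p from limma between 0.0017 and 0.0049), so that the difference of Arg-9 moved most. The call of Arg-9 was lost without the gcn2Δ His (adjusted p = 0.0588 from limma), wild-type His (0.0708) or wild-type Trp (0.0745) comparison culture, and with arrays centred on the mean of the 37 other probes (0.0741). With the gcn2Δ cultures alone as comparison none of the 4 was called (0.0697 to 0.192), and with the Cy5 orientation alone 2 were, Arg-10 and Arg-12. The cultures with and without ornithine were 1 each, from separate experiments, so that medium and experiment cannot be told apart.

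**Figure D3:**
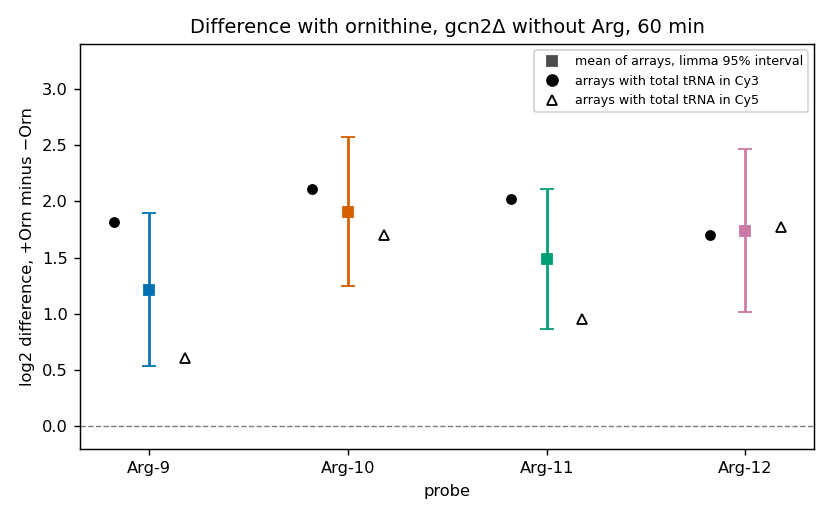
Difference in log2 charging between the gcn2Δ cultures with and without ornithine, both without Arg for 60 min, for each Arg probe. Squares are the means of the arrays with limma's 95% confidence interval, circles the arrays with total tRNA in Cy3 and triangles those with it in Cy5; all values are above 0, and the dyes differ most for Arg-9 (1.82 and 0.61).

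At 15 min the difference with ornithine in the gcn2Δ strain was 1.47 for Arg-9, which was called (adjusted p = 0.0458 from limma; 7.32% of all probes). It was 0.91 for Arg-11, 0.86 for Arg-12 and 0.36 for Arg-10, which were not called (adjusted p from limma between 0.119 and 0.298). The other calls were Asp-3 at 1.87 and Lys-4 at 1.48. Their log2 charging changes were among the lowest of the gcn2Δ culture without ornithine, at -1.12 and -0.89. On the single array with ornithine they were above the array median, at 0.75 and 0.60. The call of Arg-9 did not hold without any 1 of the gcn2Δ comparison cultures (adjusted p = 0.0858 without His, 0.0775 without Trp and 0.0564 without Trp/Phe/Tyr, from limma). In the wild type the difference with ornithine was between -0.34 and 0.13 for the 4 probes over both times, and none was called (0% of all probes) or had an unadjusted p from limma below 0.05. At 15 min the gcn2Δ culture with ornithine had a Cy3 array alone, whereas the culture without it had both orientations, and with Cy3 alone the adjusted p from limma of Arg-9 was 0.208. Whether the ornithine difference itself differs between the strains was not tested.

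To compare the isoacceptors with each other, the difference between 2 probes of the same amino acid was formed within each culture, which removes the array median, and all 32 such pairs of the array were tested together. In the gcn2Δ culture at 60 min without Arg the Arg-12 probe stood above the others: relative to the comparison cultures the pair difference was -0.74 for Arg-9 minus Arg-12 (95% confidence interval -1.22 to -0.26), -1.002 for Arg-10 minus Arg-12 (-1.69 to -0.31) and -0.74 for Arg-11 minus Arg-12 (-1.34 to -0.15). Each had an unadjusted p from limma below 0.05, and none was past the threshold over the 32 pairs (adjusted p from limma between 0.164 and 0.213; 0% of the pairs called). The 3 pairs among Arg-9, Arg-10 and Arg-11 were between -0.26 and 0.26, with intervals within -1.03 and 0.87. The gcn2Δ cultures without Arg at 60 min, with and without ornithine, were 2, each with dye-swapped arrays of the same RNA. On all 4 of these arrays, which include the Cy5 array that stood apart, Arg-12 was the highest of the 4 probes. On the 21 arrays from media that keep Arg it was the highest on 5 and the lowest on 6.

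With ornithine at 60 min 1 pair was called, Arg-9 minus Arg-12 at -1.27 (95% confidence interval -1.74 to -0.79, adjusted p = 0.00988 from limma; 3.12% of the pairs). Arg-11 minus Arg-12 was at -0.996 (adjusted p = 0.0512) and Arg-10 minus Arg-12 at -0.83 (adjusted p = 0.127). The call rested on the Cy5 array: without it the pair was at -0.47 and not called (adjusted p = 0.868 from limma), Arg-11 minus Arg-12 was at -0.47 and Arg-10 minus Arg-12 at -0.67. The strain difference of that pair, -1.34, was called (adjusted p = 0.0380 from limma; 3.12% of the pairs), and it too was lost without that array, at -0.55 (adjusted p = 0.995). It was also lost without the wild-type Trp, wild-type Trp/Phe/Tyr, gcn2Δ His or gcn2Δ Trp/Phe/Tyr comparison culture (adjusted p from limma of 0.0951, 0.0607, 0.0623 and 0.0537). No pair was called in the strain difference without ornithine, nor in the ornithine difference (0% of the pairs at each time). An unadjusted p from limma below 0.05 was found for 1 Arg pair at each time in the former, and for 2 in the gcn2Δ strain at 15 min in the latter. At 15 min without Arg the 3 gcn2Δ pairs with Arg-9 were between -0.66 and -0.53, each with an unadjusted p from limma below 0.05, and none was called (0% of the pairs, all 3 at adjusted p = 0.465). In the wild-type cultures without Arg no pair was called (0% of the pairs) and no Arg pair had an unadjusted p from limma below 0.05.

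**Figure D4:**
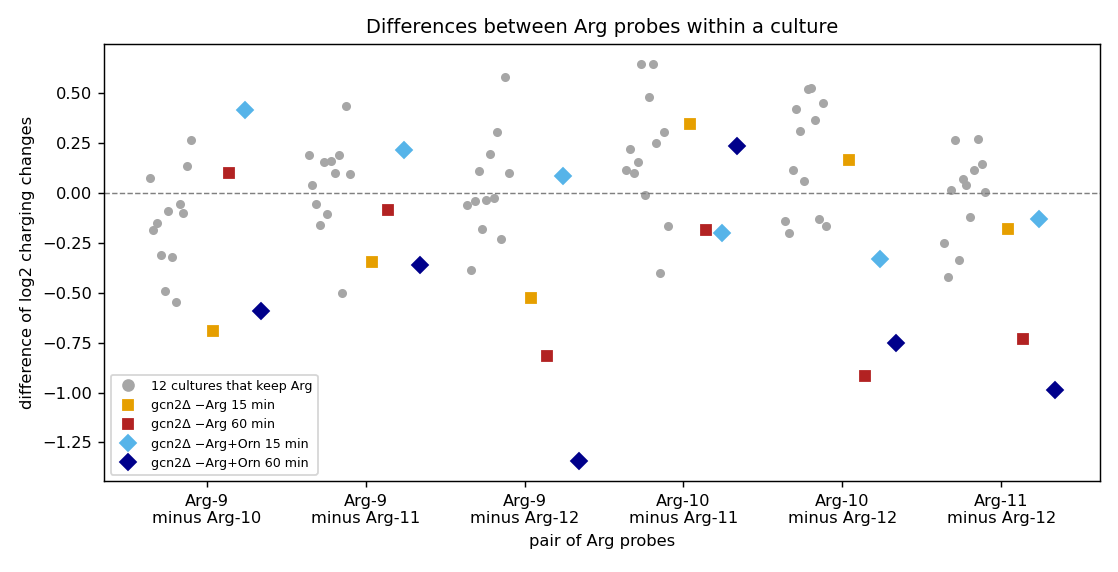
Difference of log2 charging changes for each of the 6 pairs of Arg probes. Grey points are the 12 cultures at 15 and 60 min whose media keep Arg, squares the gcn2Δ cultures without Arg and diamonds those without Arg and with ornithine; at 60 min the 3 pairs with Arg-12 lie below 0 in both gcn2Δ cultures.

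In media that keep Arg the isoacceptors stayed near their reference level. Over the 12 cultures without His, Trp, or Trp, Phe and Tyr at 15 and 60 min, the log2 charging change of Arg-9 ranged from -0.43 to 0.26 (median -0.10, SD 0.240), and that of Arg-10 from -0.25 to 0.37 (0.05, SD 0.163). Arg-11 ranged from -0.59 to 0.15 (-0.13, SD 0.205) and Arg-12 from -0.40 to 0.32 (-0.15, SD 0.223). The median SD of all 41 probes over these cultures was 0.201, so that the Arg probes were neither the quietest nor the most variable. The lowest value, Arg-11 in the wild-type Trp culture at 15 min, came from arrays that differed by 1.00. On the 21 arrays Arg-10 was the highest of the 4 on 11, and its median ratio of 1.08 was above those of Arg-9 (0.966), Arg-11 (0.963) and Arg-12 (0.946). On the log2 scale the medians over cultures of Arg-10 and Arg-12, given above, lie further apart than the SD of Arg-10 and less far apart than that of Arg-12, and the ranges of all 4 probes overlap. The Pearson correlation over the 12 cultures, given as a description, was 0.46 between Arg-9 and Arg-11 and between Arg-11 and Arg-12, 0.39 between Arg-9 and Arg-12, 0.32 between Arg-9 and Arg-10, -0.07 between Arg-10 and Arg-12 and -0.40 between Arg-10 and Arg-11. The cultures share references within a strain and experiment, and the median over all 820 pairs of probes was -0.02. The 6 Leu cultures were taken at 5, 45 and 120 min against a reference labelled 5 min, whereas the other references carry an earlier label. They are therefore not matched in time to the cultures above. In these Leu cultures the 4 probes lay between -0.26 and 0.33 with the arrays as deposited. The direction of the Cy5 arrays of that experiment is not settled: with these turned the values lay between -0.38 and 0.43, and with the Cy3 arrays alone between -0.56 and 0.53.

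**Figure D5:**
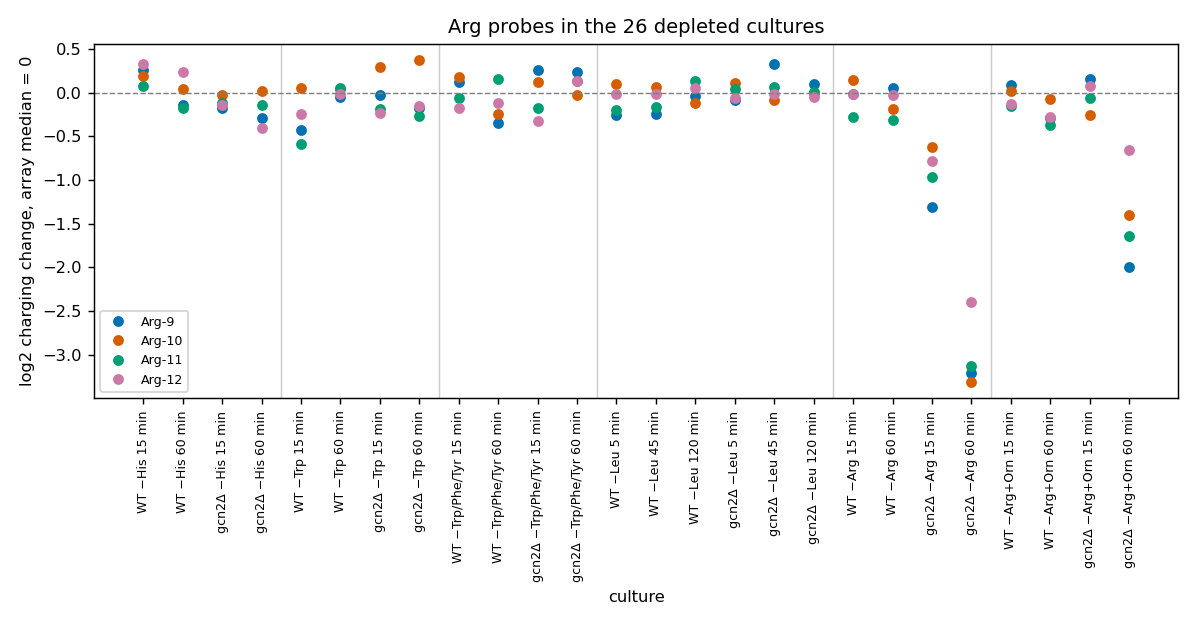
Log2 charging change (array median at 0) of the 4 Arg probes in the 26 depleted cultures, grouped by the amino acids removed; vertical lines separate experiments. Outside the gcn2Δ cultures without Arg at 15 and 60 min and with ornithine at 60 min, all values lie between -0.59 and 0.37.

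Of the 37 other probes, the 3 whose pattern was most like the mean of the Arg probes over the 20 cultures at 15 and 60 min were Glu-3 (Spearman rho 0.77), Asp-3 (0.70) and Met-6 (0.59). Over the 12 cultures that keep Arg the values were 0.74, 0.62 and 0.45, which put Glu-3 at place 1, Asp-3 at 4 and Met-6 at 8 of the 37. Without the Cy5 array that stood apart they were 0.65 for Glu-3, 0.48 for Asp-3 and 0.57 for Met-6 over the 20 cultures, still the 3 highest. These are descriptions over cultures that share references and, within an array, the same median. In the gcn2Δ strain without Arg the log2 charging change of Glu-3 was -1.20 at 15 min and -1.21 at 60 min, whereas the Arg probes went from a mean of -0.92 to -3.01 over the same time. Asp-3 was at -1.12 and -0.88, and Met-6 at -0.13 and -0.23. With ornithine at 60 min Met-6 was at -0.96, and at -0.17 without the Cy5 array. None of these was called in a culture without Arg against the comparison cultures. The 5 probes for Glu, Gln, Asp and Pro, amino acids that feed or drain Arg metabolism, were looked at as a list. None was called lower in any comparison of the cultures without Arg, in which 0% to 9.76% of all probes were called, and 1 was called higher, Asp-3 in the gcn2Δ ornithine difference at 15 min (7.32% of all probes). At 60 min without Arg in the gcn2Δ strain their median difference from the comparison cultures was -0.21, beside -0.04 over all 41 probes. They ranged from -1.16 for Glu-3 (adjusted p = 0.240 from limma) to 0.28 for Pro-5. At 15 min the list's median was -0.43, beside -0.03 over all probes, from -1.14 for Glu-3 (adjusted p = 0.0959 from limma) to -0.10 for Pro-6. The 2 arrays of that culture differed most for Glu-3, by 0.727 on the log2 scale. Of the 41 probes 7 had an unadjusted p from limma below 0.05 there, 4 of them Arg probes.

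The amount of each tRNA was measured in 1 pair of cultures, the gcn2Δ strain after 60 min without Trp against its reference, on 2 arrays with the dyes exchanged. The deposited abundance ratio of Arg-9 was 1.27 when the reference carried Cy3 and 1.23 when it carried Cy5, an average of 1.25, which was place 40 of 41 from the lowest. Arg-10 stood at 0.950 and 1.05, Arg-11 at 0.860 and 1.03, and Arg-12 at 0.852 and 0.994. Arg-9 was thus above the other isoacceptors in both orientations, and the other 3 kept the order Arg-10, Arg-11, Arg-12 in both, although Arg-10 and Arg-11 lay below 1 in one orientation and above it in the other. All 41 probes lay within 1.5 times the reference, from 0.811 to 1.28, and on the log2 scale the median SD between orientations was 0.0758. There is no replicate of this pair and no test. That medium kept Arg, and abundance in cultures without Arg was not analysed here. In the charging arrays of the gcn2Δ strain at the same medium and time the ratio of Arg-9 was 0.885. Whether abundance and charging were measured in the same culture is not stated.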

How the data were processed

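Charging was measured on 68 arrays and tRNA abundance on 3. The authors deposited ratio values on a linear scale for 41 probes, relative to the reference array that matches in strain, experiment and dyes and scaled to an array median near 1; scanner and software are not given in the sources used here. No value was missing. Values were used as log2 without a pseudocount and centred by the median of each array, the 4 Trp arrays with total tRNA in Cy5 were turned, and a culture with dye-swapped arrays was given their mean. Groups came from the sample titles, which do not name the medium of the abundance arrays. That medium is the one given in the paper. At each time point 1 model (limma 3.58.1 under R 4.3.3, functions lmFit and eBayes) held the 4 cultures without Arg, each as its own group, and 6 comparison cultures; changes from 15 to 60 min were fitted separately. Adjustment was by Benjamini-Hochberg over the 41 probes or over 32 pairs of probes of 1 amino acid. The procedure was tested on simulated data with independent normal noise, in which lone and comparison cultures varied alike. That simulation could not check the assumption that the lone culture varies like the comparison cultures. Alternatives were the centring, each dye orientation, the comparison cultures used, each of these left out in turn, the variance prior, weights by the number of arrays, a strain term and the set of pairs.

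The 4 Arg probes, the list of Glu, Gln, Asp and Pro probes and the tests were chosen with earlier results of these data known. Named besides are the 3 probes with the highest Spearman rho with the mean of the Arg probes and any probe called in a culture without Arg; other probes were named after their values were seen. Dye-swapped arrays carry the same RNA and were counted as 1 replicate. Nothing in the sources used here states whether time points came from separate flasks.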

Additional observations from a re-analysis of the deposited data

Results flagged for a closer look

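Of the 8 sets of 6 comparison cultures (4 Arg probes, 2 times), 1 held a culture far from the others by Dixon's criterion, which chance gives in about 1 of 20 sets. It was Arg-12 at 15 min, at 0.32 in the wild-type culture without His, with the next culture at -0.14.

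A difference between strains passed the test for 7 values. At 60 min without Arg the gcn2Δ minus wild-type difference in log2 charging change was -3.26 for Arg-9 and -3.13 for Arg-10, with -2.82 for Arg-11 and -2.36 for Arg-12. At 60 min with ornithine it was -1.71 for Arg-9, -1.32 for Arg-10 and -1.27 for Arg-11.

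A difference between times passed for 7 values, all in the gcn2Δ strain. From 15 to 60 min without Arg the change, relative to comparison cultures, was -1.77 for Arg-9 and -2.59 for Arg-10, with -2.30 for Arg-11 and -1.69 for Arg-12. With ornithine it was -2.03 for Arg-9, -1.04 for Arg-10 and -1.72 for Arg-11. The values with ornithine, for strain and for time, were not past the threshold once the Cy5 array that stood apart was left out.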

How the results depend on the processing

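No paired analysis was possible because the replicate numbers count dye-swapped arrays of the same RNA and not cultures, which leaves no replicate block to fit. The change from 15 to 60 min was taken within each strain and experiment. Of 30 single values called, 19 lost the call under at least 1 alternative and none changed direction. Of the 170 single values that were not called, 102 of 2680 recomputed values changed sign, none of these called. Of the same 2680 recomputed values, 44 were called under an alternative. At 60 min without Arg the gcn2Δ calls of all 4 probes, and those of the strain difference, held throughout. The cause of the moves below was not tested.

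Calls under the alternatives were counted for Arg probes and Arg pairs only, and the share over all probes or pairs is not known for them. The number of Arg probes called at 15 min without Arg in the gcn2Δ strain, 2 in the main analysis, was 0 with Cy3 alone and without the Trp/Phe/Tyr cultures, 4 with Cy5 alone, and 0 to 2 with 1 comparison culture left out. At 60 min with ornithine 3 became 1 with Cy3 alone. The strain difference at 15 min without Arg, 0, became 4 with Cy5 alone. With ornithine at 60 min it went from 3 to 0 with Cy3 alone, with a strain term and without the Cy5 array that stood apart, and to between 1 and 3 with 1 culture left out. The ornithine difference in the gcn2Δ strain at 60 min went from 4 to 2 with Cy5 alone and 0 with gcn2Δ comparison cultures only. At 15 min, 1 became 3 with gcn2Δ cultures only, 2 without the Trp cultures, 0 with Cy3 alone, with weights by array number and without the Trp/Phe/Tyr cultures, and 0 to 2 with 1 culture left out. The change from 15 to 60 min with ornithine went from 3 to 0 with Cy3 alone and without the Cy5 array.

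Among pairs at 60 min with ornithine, 1 call became 0 with Cy3 alone and without the Cy5 array, 4 with Cy5 alone, 2 with a robust prior, with weights by array number and without the Trp cultures, 3 with the Trp Cy5 arrays as deposited, and 1 to 3 with 1 culture left out. The strain difference of pairs, 1, became 0 over all pairs of probes, with Cy3 alone, with weights by array number, without the Cy5 array and without the Trp/Phe/Tyr cultures, and 0 to 1 with 1 culture left out. Over time with ornithine, 0 pairs became 3 with a robust prior and with the Trp Cy5 arrays as deposited, 2 without the Trp cultures, 1 without the Trp/Phe/Tyr cultures, and 0 to 3 with 1 culture left out. The ornithine difference of pairs at 15 min, 0, became 1 with gcn2Δ cultures only. The alternatives that leave out the Cy5 array or keep the Trp arrays as deposited, and the test of pairs over time, were chosen after the data were seen. Ratios near 1 for a tRNA say nothing about its absolute charging, and signal over background was not analysed here.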
